A study of Homo sapiens with 18 samples.

Results

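The comparison described here is between untreated CHL1 and untreated A375, 2 human melanoma cell lines, in 4 of the 18 libraries of the series, 2 per line. They were chosen by their labels, as the control libraries of 72 hours, and none was chosen by a measured value. The CHL1 control libraries came from cells given DMSO, the drug vehicle, for 72 hours in DMEM, and the A375 control libraries from cells given DMSO for 72 hours in RPMI-1640. Both media held the same serum supplement, both lines came from the American Type Culture Collection, and the labels give the genotype of every sample as WT. The study's methods describe CHL1 as wild type for BRAF and NRAS with mutant p53, and A375 as carrying mutant BRAF with wild-type p53. Each genotype is thus represented by a single established line. The series asked how palbociclib, an inhibitor of the kinases CDK4 and CDK6, and GSK3326595, an inhibitor of the arginine methyltransferase PRMT5, change the transcriptome of these lines, and the controls are the states from which those responses start. The CHL1 libraries carry the library name SA-SPLICE19 and the A375 control libraries of 72 hours a different one, so line, culture medium and library set cannot be told apart in this comparison. The labels state that each condition was grown in 2 replicates, without saying how these were separated. The p-values rest on the spread between replicate libraries, estimated over all 18 libraries of the series and not only the 4 compared, and on no other spread.

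Melanoma arises from melanocytes, pigment cells of the neural crest. The transcription factor MITF, together with SOX10 and PAX3, drives the melanocyte programme, and MITF binds short E-box words upstream of pigment genes such as TYR, TYRP1 and DCT. Melanoma cells can leave that programme for a dedifferentiated, invasive state, known for the receptors AXL, EGFR and NGFR and for matrix and adhesion genes. Oncogenic BRAF keeps the MEK and ERK kinases active, and ERK output is usually read from its feedback genes, the DUSP phosphatases and the SPRY and SPRED inhibitors. The p53 protein activates CDKN1A, MDM2 and a set of stress genes when it is functional.

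The total counts of the 4 libraries ranged from 18701959 to 30013952, and the 2 libraries of a line differed by more than counting noise, with a biological coefficient of variation of 0.094 in CHL1 and 0.107 in A375. Levels are given as CPM, counts per 1000000 of the TMM-scaled library, and a count of 1 corresponded to at most 0.0489 CPM. Counts are not divided by transcript length, so that levels are compared between lines and not between genes. The A375 control_6d libraries, which belong to the library set of CHL1, carried a trend towards lower levels of GC-rich genes. The 4 libraries compared did not share it. Each gene was taken relative to its mean over all 18 libraries on the log2 scale. The mean of GC-rich genes minus that of GC-poor genes was then -1.64 and -0.55 in A375 control_6d. It was 0.06 and 0.05 in CHL1 and 0.61 and 0.58 in A375 control_72hr, so that the compared groups differed in it as well. GC content was known for 13438 genes that averaged 1 CPM or more. Over these, the log2 fold change of CHL1 over A375 had a Spearman rho of -0.197 with GC content. For A375 control_6d over A375 control_72hr the rho was -0.683.

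Of 20705 genes tested with edgeR's quasi-likelihood test, 12205 were differentially expressed genes (DEGs) at a Benjamini-Hochberg adjusted p below 0.05, referred to as called, which was 58.9% of the table. CHL1 was higher in 6067 DEGs (29.3% of the table) and A375 in 6138 (29.6%). Fold changes are given as log2 of CHL1 over A375, so that a negative value is higher in A375. The SE beside a fold change is its absolute value divided by the square root of the test's F statistic. It can lie below counting error where a line has only a few counts, and such values are not a measure of precision. DEGs had a median absolute log2 fold change of 1.73, and 4305 DEGs were at least 1 log2 unit higher in CHL1 and 4500 in A375. At 5 log2 units or more the counts were 909 and 1238. In 1142 DEGs all counts of a line were 0, in CHL1 for 719 genes and in A375 for 423. The median over all genes was -0.02. The libraries of the lines did not overlap in 12199 of the DEGs, but this was also the case in 17429 of all genes (84.2%), so that separation of 2 libraries from 2 is by itself common here.

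The genes with the largest ratios between the lines were abundant in one line and at or near 0 in the other. COL11A1, which encodes a fibrillar collagen chain of cartilage, had 3791 and 3398 CPM in CHL1 against 0.193 and 0.195 CPM in A375 (log2 fold change 14.14 ± 0.43 SE, adjusted p = 2.1e-14). SEZ6L, a neuronal membrane protein gene, had 1846 and 1932 CPM in CHL1 and 0 CPM in both A375 libraries, which is at least 12966-fold higher in CHL1 when A375 is set to a floor of 3 counts per library. ITIH5, an inter-alpha-trypsin inhibitor heavy chain that binds hyaluronan, had 1447 and 1290.5 CPM in CHL1 against 0.0965 and 0.0977 CPM in A375. Both CHL1 libraries lay above both A375 libraries in each of these genes, which the rule for choosing the leading genes required. The other leading CHL1 genes were ZNF536, COL14A1, LINC01151, SH2D7, SLITRK3, IGSF21, WSCD2, SCUBE1 and AMER2, with means of 219 to 1329 CPM in CHL1 and at most 0.315 CPM in A375. ZNF536 encodes a zinc-finger repressor of neuronal differentiation, and SLITRK3 and IGSF21 encode synaptic adhesion proteins.

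In A375 the leading genes included a cancer-testis antigen, oncofetal regulators and matrix genes. MAGEA4, a cancer-testis antigen of the X chromosome, had 0 CPM in both CHL1 libraries and 544 and 673 CPM in A375 (at least 5793-fold higher in A375). TNC, the matrix glycoprotein tenascin C, had 0.0345 and 0.0709 CPM in CHL1 against 612 and 594 CPM in A375 (11494-fold higher in A375, 95% counting interval 3933 to 55739.8). HMGA2, a chromatin architectural factor of embryonic and tumour cells, had 0.0345 and 0 CPM in CHL1 against 614 and 524 CPM in A375 (32536-fold higher in A375, 95% counting interval 5839 to 1285180.0). These counting intervals cover counting error only. Libraries that did not overlap and a large ratio were again required by the rule that chose these genes. IGF2BP1, an oncofetal RNA-binding protein gene, had 0 CPM in both CHL1 libraries and 209 and 242 CPM in A375, and ANPEP, the surface peptidase CD13, had 0.0345 and 0.177 CPM in CHL1 against 404 and 468 CPM in A375. The remaining genes were LINC01029, CPA4, HIST1H4F, BTBD11, ANKRD30A, GRAMD1B and IL13RA2, with means of 154 to 481 CPM in A375 and at most 0.0705 CPM in CHL1. HIST1H4F belongs to a family of near-identical histone H4 genes, so its level is uncertain.

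**Figure D1:**
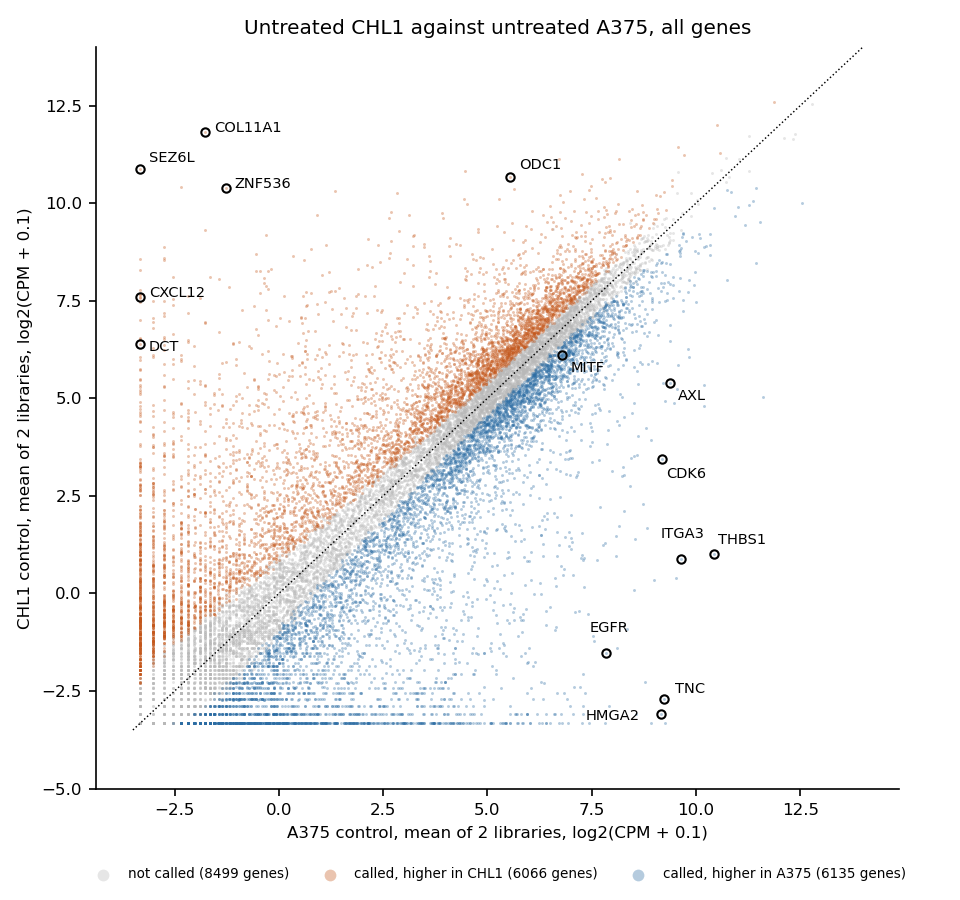
Mean level of each gene in the 2 CHL1 control libraries (vertical axis) against the 2 A375 control libraries (horizontal axis), both as log2(CPM + 0.1), with DEGs coloured by the line in which they were higher and the dotted line marking equal levels; XIST and Y-linked genes are not plotted. COL11A1 and SEZ6L sit at the upper left and HMGA2 and TNC at the lower right, while MITF lies close to the line of equal levels.

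A comparison of the lines that shares no library with the controls was available in the cells given 1 µM palbociclib for 6 days, where all 4 libraries belong to the library set SA-SPLICE19. There 12658 genes were DEGs, 61.1% of the table (29.2% higher in CHL1, 31.9% higher in A375). Of the control DEGs, 9003 were also DEGs in the same direction, which was 73.8% of the control DEGs and 71.1% of those of 6 days, and 352 had the opposite direction. Among the control DEGs of at least 5 log2 units, 1938 of 2147 (90.3%) had the same direction and 13 the opposite. All 24 leading genes named above were among those with the same direction. COL11A1 had a log2 fold change of 10.79 after 6 days, and HMGA2 had means of 0 CPM in CHL1 and 432 CPM in A375. Across the 15316 genes that averaged 1 CPM or more, the fold changes of both comparisons had a Spearman rho of 0.804; genes are not independent replicates, and both comparisons share the lines and media.

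The A375 control_6d libraries gave a second view of the untreated lines within the set SA-SPLICE19, although time then differed. Against them, CHL1 control had 12629 DEGs (61% of the table, 29.5% higher in CHL1 and 31.5% in A375 control_6d), a comparison that shares the CHL1 libraries with the main one. The A375 controls also differed from each other: between 6 days and 72 hours 10340 genes were DEGs (49.9% of the table), with a median absolute log2 fold change of 1.04. Time, library set and the GC trend cannot be told apart in that difference. The value against A375 control_6d is given below with the values of a gene where it turned the direction or ended the call. Gene lists were chosen with earlier results of these data known. Of the genes named below, 77 members beyond the naming rule were chosen after their values were seen. Counts of list members called are to be read beside the shares over all genes. These were 29.3% higher in CHL1 and 29.6% higher in A375.

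**Figure D2:**
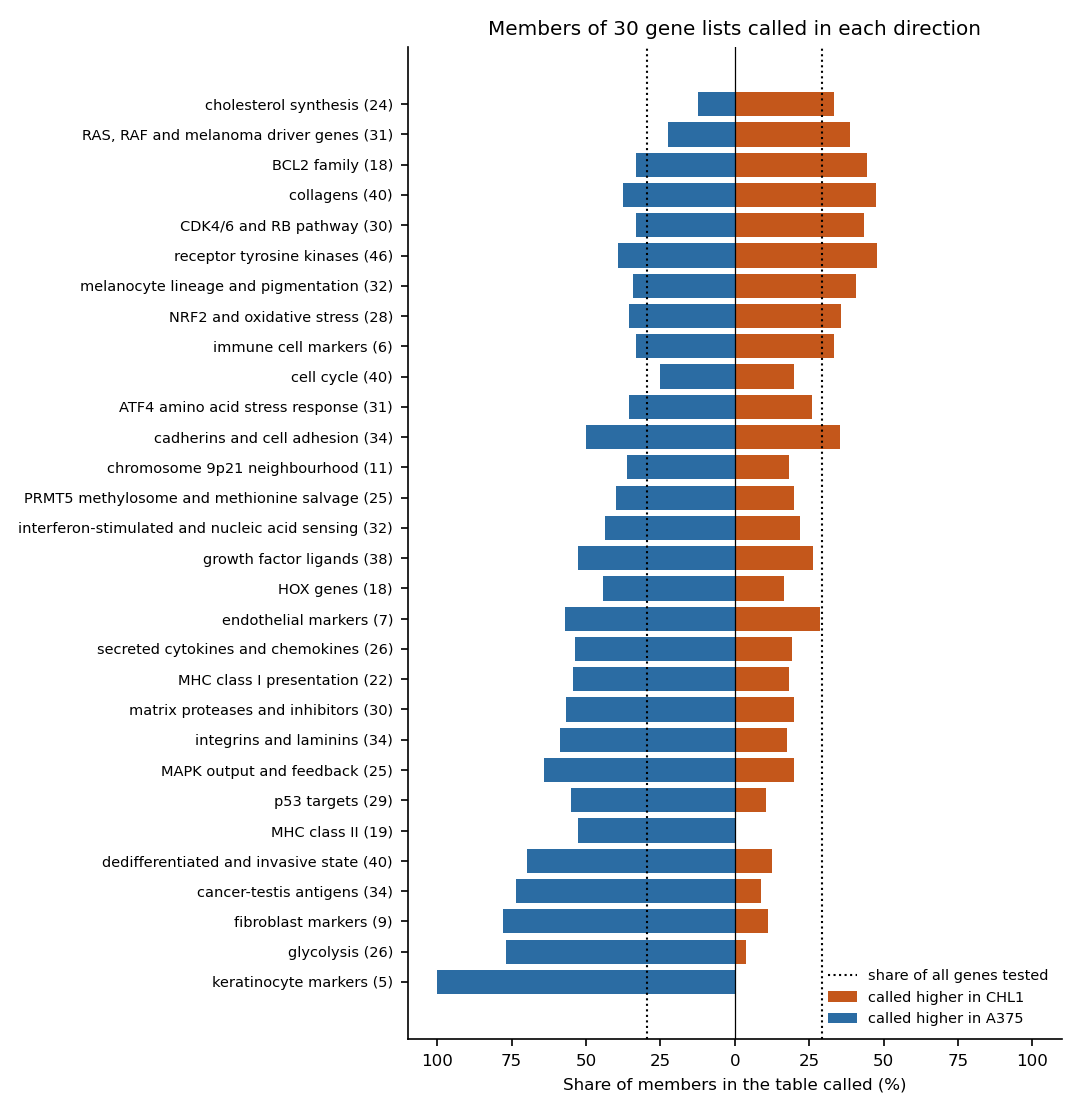
Share of each gene list's members in the table, in percent, that were DEGs higher in CHL1 (right) or higher in A375 (left), with the number of members in parentheses and the dotted lines at the shares over all genes tested, 29.3% and 29.6%. Keratinocyte and fibroblast markers, glycolysis, cancer-testis antigens and the dedifferentiated state extend farthest to the A375 side, and no list extends as far to the CHL1 side.

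Genes of the melanocyte programme were called in both directions. Of 32 measured members of the list, 13 were higher in CHL1 and 11 in A375, with a median log2 fold change of 0.41. Because MITF binds the words CATGTG and CACGTG, the 250 bases before the transcription start were searched for both on either strand (CATGTG reads as CACATG on the other strand, CACGTG is its own reverse complement, and no match to one word can overlap a match to the other). RefSeq promoters of GRCh38.p14 were matched to 23 of the 32 members. CATGTG was present in 10 of these (43.5%) and in 6.11% of the 12231 promoters matched to the table. CACGTG was present in 1 (4.35%) and in 8.12% of all. Either word was found in 2 of 8 promoters of members higher in CHL1 and in 3 of 8 of those higher in A375. A match is a description of letters and not a binding site. The promoters below, which run from 250 bases before the start to the base before it and carry the words in capitals, belong to a gene higher in CHL1 (OCA2, chr15:28099316-28099565, minus strand), 2 genes higher in A375 (MLPH, chr2:237487001-237487250, plus strand, and GPNMB, chr7:23246525-23246774, plus strand) and a pigment gene near 0 in both lines (TYR, chr11:89177625-89177874, plus strand).
OCA2: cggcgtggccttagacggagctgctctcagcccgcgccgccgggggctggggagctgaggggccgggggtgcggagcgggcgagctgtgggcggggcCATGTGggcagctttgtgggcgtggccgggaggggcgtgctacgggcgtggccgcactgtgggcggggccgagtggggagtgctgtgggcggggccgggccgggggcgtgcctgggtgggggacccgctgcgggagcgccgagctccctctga
MLPH: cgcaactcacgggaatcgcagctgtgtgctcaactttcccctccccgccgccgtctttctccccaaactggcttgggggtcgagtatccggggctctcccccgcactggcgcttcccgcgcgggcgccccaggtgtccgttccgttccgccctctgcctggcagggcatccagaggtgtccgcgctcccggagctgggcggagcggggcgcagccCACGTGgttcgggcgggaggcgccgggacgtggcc
GPNMB: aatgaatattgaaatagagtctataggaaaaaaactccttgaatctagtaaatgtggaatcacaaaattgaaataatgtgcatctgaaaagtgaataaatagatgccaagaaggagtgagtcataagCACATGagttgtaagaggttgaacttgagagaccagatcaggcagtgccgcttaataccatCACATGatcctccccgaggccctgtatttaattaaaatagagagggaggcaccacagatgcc
TYR: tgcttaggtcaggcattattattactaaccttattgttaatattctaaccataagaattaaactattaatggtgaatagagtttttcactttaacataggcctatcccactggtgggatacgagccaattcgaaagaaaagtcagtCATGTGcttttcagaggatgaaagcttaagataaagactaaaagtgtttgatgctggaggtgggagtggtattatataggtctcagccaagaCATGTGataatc
Counted from the start site, the first base of the word lay at -153 in OCA2, -35 in MLPH, -123 and -62 in GPNMB and -104 and -12 in TYR.

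MITF itself, the master regulator of the lineage, had 66.2 and 71.8 CPM in CHL1 against 114 and 108 CPM in A375 (log2 fold change -0.69 ± 0.18 SE, adjusted p = 0.0029). It was thus expressed in both lines, and its libraries did not overlap. PMEL, a melanosome matrix protein and classical melanoma marker, had 1.04 and 0.957 CPM in CHL1 against 1.11 and 1.17 CPM in A375 and was not called (adjusted p = 0.7, edgeR). TYR, the rate-limiting enzyme of melanin synthesis, was near 0 in all 4 libraries, with 0.0345 and 0.0709 CPM in CHL1 against 0 and 0.0489 CPM in A375. TYRP1, which stabilizes tyrosinase, was low in both lines and its libraries overlapped (0.725 and 1.10 CPM in CHL1 against 0.772 and 0.195 CPM in A375). In the A375 control_6d libraries TYR was present at 5.02 and 0.626 CPM, and it was called lower in CHL1 against them. PAX3, the neural crest factor upstream of MITF, had 134 and 152 CPM in CHL1 against 44.9 and 44.3 CPM in A375 (log2 fold change 1.68 ± 0.17 SE, adjusted p = 8.4e-08). SOX10, MLANA and S100A1 were not analysed here. Of the defining lineage markers, MITF and S100B were thus present in all 4 libraries compared and DCT in CHL1 only. TYR, TYRP1 and PMEL were at most 1.17 CPM in each of these 4 libraries.

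Among the members higher in CHL1 were pigment genes and their regulators. DCT, the dopachrome tautomerase of eumelanin synthesis, had 96.1 and 70.4 CPM in CHL1 and 0 CPM in both A375 libraries (at least 572-fold higher in CHL1). IRF4, a transcription factor that acts with MITF on pigment genes, had 120.5 and 144 CPM in CHL1 against 0.0483 and 0 CPM in A375 (5441-fold higher in CHL1, 95% counting interval 976 to 214949). OCA2, the melanosome transporter whose promoter is shown above, had 409 and 556 CPM in CHL1 against 2.12 and 2.05 CPM in A375 (log2 fold change 7.85 ± 0.46 SE, adjusted p = 5.4e-11). In all of these both CHL1 libraries lay above both A375 libraries. SEMA6A, a transmembrane semaphorin, and S100B, a calcium-binding marker of the neural crest, were also higher in CHL1. S100B had 35.5 and 27.2 CPM in CHL1 against 4.01 and 3.57 CPM in A375, but 44.8 and 26.9 CPM in A375 control_6d, where its log2 fold change of -0.19 had the other sign. The neural crest receptors ERBB3 (log2 fold change 2.97 ± 0.22 SE, adjusted p = 1.5e-09) and EDNRB (log2 fold change 3.51 ± 0.35 SE, adjusted p = 9e-08) were higher in CHL1 as well, but EDNRB had a log2 fold change of -0.21 against A375 control_6d.

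Members higher in A375 included genes of melanosome transport and of the melanosome itself. MLPH, melanophilin, which links melanosomes to the motor myosin Va, had 0 CPM in both CHL1 libraries and 52.5 and 53.9 CPM in A375 (at least 507-fold higher in A375). GPNMB, a melanosomal glycoprotein, had 0.207 and 0.248 CPM in CHL1 against 58.8 and 53.2 CPM in A375 (log2 fold change -7.91 ± 0.36 SE, adjusted p = 1.9e-12). SLC45A2, a melanosomal transporter, had 0.345 and 0.425 CPM in CHL1 against 4.78 and 4.15 CPM in A375 (log2 fold change -3.52 ± 0.34 SE, adjusted p = 4.3e-08). CDH3, P-cadherin of melanocytes, was at 0 in both CHL1 libraries and low in A375 (1.54 and 1.08 CPM). In the 6-day comparison 12 members were higher in CHL1 and 11 in A375; 10 and 7 had the same direction in both comparisons and 0 the opposite.

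**Figure D3:**
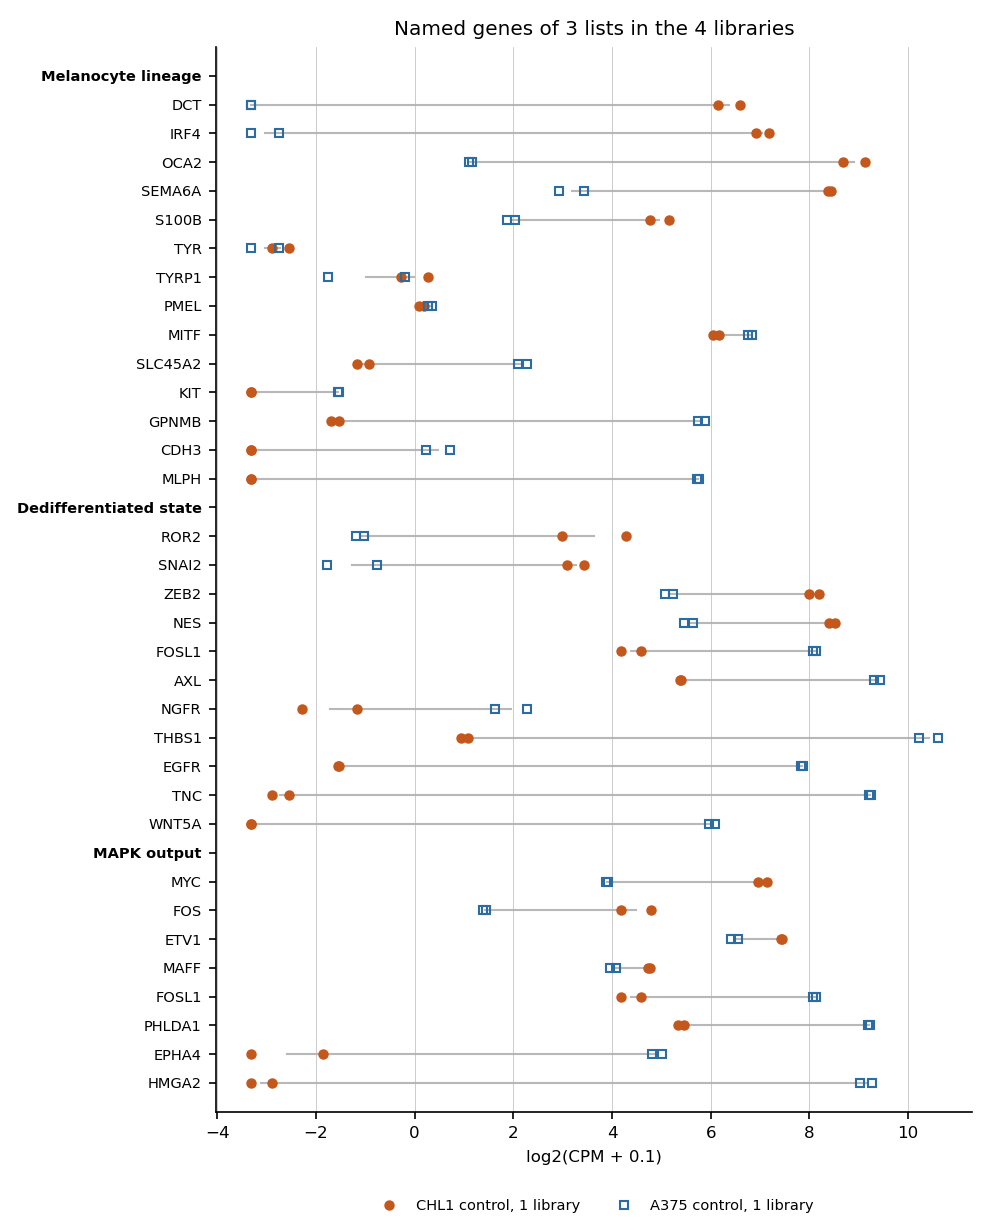
Level in each of the 4 libraries, as log2(CPM + 0.1), of the named genes of the melanocyte, dedifferentiated and MAPK lists; circles are CHL1 and squares A375 libraries, a grey line joins the group means and -3.32 is a count of 0. DCT, IRF4 and OCA2 lie to the right for CHL1 and TNC, EGFR, THBS1 and HMGA2 to the right for A375, with MITF and PMEL close together.

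The dedifferentiated and invasive state was higher in A375 in most of its members. Of 40 measured, 28 were higher in A375 and 5 in CHL1, with a median of -1.95 beside -0.02 over all genes. EGFR, the epidermal growth factor receptor, had 0.242 and 0.248 CPM in CHL1 against 234 and 228 CPM in A375 (log2 fold change -9.85 ± 0.29 SE, adjusted p = 1.5e-14). AXL, a receptor of the TAM family, had 41.8 and 41.9 CPM in CHL1 against 632 and 695 CPM in A375 (log2 fold change -3.99 ± 0.18 SE, adjusted p = 1.1e-12). NGFR, a receptor of neural crest stem cells, was low in both lines, with 0.345 and 0.106 CPM in CHL1 against 2.99 and 4.74 CPM in A375, and higher in A375. EGFR and AXL did not overlap between the lines, and AXL remained well above 0 in CHL1. WNT5A, a non-canonical WNT ligand, had 0 CPM in both CHL1 libraries and 62 and 68.3 CPM in A375 (at least 620.2-fold higher in A375). THBS1, thrombospondin 1, had 2.00 and 1.81 CPM in CHL1 against 1201 and 1551 CPM in A375 (log2 fold change -9.49 ± 0.69 SE, adjusted p = 1e-09). FOSL1, an AP-1 subunit induced by ERK, had 24.1 and 18.1 CPM in CHL1 against 271 and 280.4 CPM in A375 (log2 fold change -3.71 ± 0.33 SE, adjusted p = 1.5e-08). The YAP targets CTGF (-7.55) and CYR61 (-2.84), the surface receptor CD44 (-4.87), caveolin CAV1 (-7.22) and fibronectin FN1 (-3.77) had negative log2 fold changes as well, all called.

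The 5 members higher in CHL1 were ROR2, SNAI2, ZEB2, NES and NUAK1. ROR2, a receptor for WNT5A, had 7.84 and 19.4 CPM in CHL1 against 0.338 and 0.391 CPM in A375. SNAI2, a neural crest repressor, had 8.43 and 10.7 CPM in CHL1 against 0.193 and 0.489 CPM in A375 (log2 fold change 4.79 ± 0.38 SE, adjusted p = 3.3e-09). ZEB2, the ZEB factor of the melanocytic state, had 294 and 254 CPM in CHL1 against 33.4 and 37.5 CPM in A375 (log2 fold change 2.95 ± 0.21 SE, adjusted p = 6.5e-10), whereas its relative ZEB1, the factor of the mesenchymal state, had 27.3 and 39.9 CPM in CHL1 against 82.9 and 86.4 CPM in A375 (log2 fold change -1.33 ± 0.28 SE, adjusted p = 0.00046). ZEB2 and ZEB1 were thus called in opposite directions, and their log2 fold changes against A375 control_6d were 0.98 and -3.01. NES, the intermediate filament nestin of neural progenitors, had 337 and 369 CPM in CHL1 against 43.6 and 50.1 CPM in A375. After 6 days of palbociclib 24 members were higher in A375 and 6 in CHL1, with 22 and 5 in the same direction as in the controls. SOX9 and SOX2 were not analysed here.

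Most ERK output genes were higher in A375. Of 25 measured, 16 were higher in A375 and 5 in CHL1 (median -1.65). Among the feedback phosphatases, DUSP4 had 84.1 and 93.2 CPM in CHL1 against 661 and 673 CPM in A375 (log2 fold change -2.91 ± 0.24 SE, adjusted p = 5.2e-09) and DUSP6, which dephosphorylates ERK, had 67.9 and 53 CPM in CHL1 against 159 and 171 CPM in A375 (log2 fold change -1.45 ± 0.23 SE, adjusted p = 3.2e-05). Both A375 libraries were above both CHL1 libraries. Among the receptor-level inhibitors, SPRY2 (-1.88), SPRY4 (-1.44), SPRY1 (-1.95), SPRED1 (-1.04) and SPRED3 (-2.78) were all called higher in A375, whereas SPRED2 had 124 and 133 CPM in CHL1 against 123 and 120.1 CPM in A375 and was not called. PHLDA1, an ERK-induced gene, had 40.4 and 44.1 CPM in CHL1 against 596 and 579 CPM in A375 (log2 fold change -3.80 ± 0.34 SE, adjusted p = 1.7e-08). CCND1, the cyclin D1 gene downstream of ERK, had 311 and 328 CPM in CHL1 against 373 and 388 CPM in A375 and was not called (adjusted p = 0.2, edgeR). In CHL1 the immediate early genes MYC and FOS were the higher ones. MYC had 141 and 125 CPM in CHL1 against 14.5 and 15 CPM in A375 (log2 fold change 3.17 ± 0.22 SE, adjusted p = 4.5e-10), and FOS had 27.6 and 18 CPM in CHL1 against 2.51 and 2.64 CPM in A375 (log2 fold change 3.14 ± 0.28 SE, adjusted p = 1.9e-08). After 6 days of palbociclib 17 members were higher in A375 and 2 in CHL1, and the 2 members higher in CHL1 in both comparisons were MYC and FOS.

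Some kinases and GTPases of the pathway differed by smaller folds. BRAF had 177 and 191 CPM in CHL1 against 116 and 119 CPM in A375 (log2 fold change 0.65 ± 0.18 SE, adjusted p = 0.0051), and NRAS had 248 and 221 CPM in CHL1 against 115 and 138 CPM in A375 (log2 fold change 0.89 ± 0.20 SE, adjusted p = 0.00099). Their libraries did not overlap between the lines, but against A375 control_6d BRAF had a log2 fold change of -0.24 and NRAS one of 0.21, neither of them called. MAP2K1, which encodes MEK1, had 50.5 and 58.2 CPM in CHL1 against 108 and 100.4 CPM in A375 (log2 fold change -0.94 ± 0.15 SE, adjusted p = 2.8e-05), but -0.27 against A375 control_6d, not called. The kinase gene MAP3K8, an activator of MEK, was low and higher in CHL1, with 2.14 and 3.16 CPM in CHL1 against 1.11 and 0.440 CPM in A375. NF1, a RAS inhibitor, and AKT1 were not called, but against A375 control_6d AKT1 had a log2 fold change of 0.99 and was called. Of the 31 genes of this list, 12 were higher in CHL1 and 7 in A375, in all a share near the 58.9% over all genes. Against A375 control_6d these counts were 14 and 4, and CDKN2A was not analysed here.

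The receptor tyrosine kinases, through which extracellular growth factors reach RAS and PI3K, differed in both directions. Of 46 measured, 22 were higher in CHL1 and 18 in A375, both above the shares over all genes (29.3% and 29.6%). Against A375 control_6d the counts were 21 and 13, and after 6 days of palbociclib 20 and 14. In both, the CHL1 count stayed above its share over all genes (29.5% and 29.2%). The A375 count was below its share there (31.5% and 31.9%). CHL1 carried FGFR2, a fibroblast growth factor receptor, at 221 and 197 CPM against 0.241 and 1.03 CPM in A375 (log2 fold change 8.36 ± 0.36 SE, adjusted p = 9.1e-13). ERBB4, a neuregulin receptor, had 66.4 and 94 CPM in CHL1 against 0.193 and 0.831 CPM in A375 (log2 fold change 7.28 ± 0.66 SE, adjusted p = 2.4e-08), and ERBB3, its relative without kinase activity of its own, had 333 and 304 CPM in CHL1 against 39.5 and 41.7 CPM in A375. MERTK, a TAM receptor like AXL, had 131 and 140.4 CPM in CHL1 against 1.45 and 1.22 CPM in A375 (log2 fold change 6.66 ± 0.26 SE, adjusted p = 2.7e-13). AXL and MERTK, which share the ligands GAS6 and PROS1, were thus called in opposite directions. FLT1, a VEGF receptor, had 146 and 110.2 CPM in CHL1 against 0.820 and 0.635 CPM in A375 (log2 fold change 7.45 ± 0.32 SE, adjusted p = 8.1e-13), but after 6 days of palbociclib its log2 fold change was -0.21 and not called. KDR, the other VEGF receptor measured, was low (3.45 and 3.86 CPM in CHL1 against 0.386 and 0.0489 CPM in A375), and its log2 fold change of 4.04 turned to -0.61, not called, against A375 control_6d.

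In A375 the receptors were EGFR, several ephrin receptors and a collagen receptor. EPHB2 had 0 CPM in both CHL1 libraries and 38.4 and 44.5 CPM in A375 (at least 395-fold higher in A375), and EPHA4 had 0 and 0.177 CPM in CHL1 against 32.1 and 28.1 CPM in A375 (log2 fold change -8.35 ± 0.46 SE, adjusted p = 2.3e-11). DDR2, a receptor for fibrillar collagen, had 3.11 and 3.30 CPM in CHL1 against 294 and 272 CPM in A375 (log2 fold change -6.46 ± 0.25 SE, adjusted p = 2.4e-13). Other ephrin receptors were higher in CHL1, among them EPHB6 (6.01), EPHA5 (4.74) and EPHA7 (3.28). MET, the HGF receptor, was expressed in both lines (308 and 276 CPM in CHL1 against 375.3 and 445 CPM in A375), a difference that was no longer called when A375 replicate 2 or either CHL1 library was left out and that had the other sign after 6 days (0.50). Against A375 control_6d MET had a log2 fold change of 0.06, not called. KIT, the receptor of melanocyte precursors, was at 0 in both CHL1 libraries and at 0.241 and 0.244 CPM in A375, and was not called against A375 control_6d. TIE1, a receptor of endothelial cells, had 0.0345 and 0.0709 CPM in CHL1 against 14.3 and 15.1 CPM in A375 (279.9-fold higher in A375, 95% counting interval 95.3 to 1361).

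The growth factor ligands were more often higher in A375, with 20 of 38 there and 10 higher in CHL1 (median -0.73). HGF, the ligand of MET, had 0 CPM in both CHL1 libraries and 16.2 and 14 CPM in A375 (at least 144-fold higher in A375). TGFA, a ligand of EGFR, had 17.8 and 21.7 CPM in CHL1 against 269.9 and 300.3 CPM in A375 (log2 fold change -3.85 ± 0.27 SE, adjusted p = 5.4e-10), and GAS6, a ligand of AXL and MERTK, had 0.863 and 0.815 CPM in CHL1 against 28.3 and 18.1 CPM in A375 (log2 fold change -4.78 ± 0.35 SE, adjusted p = 1.3e-09). For the ligands of EGFR, AREG (93.7-fold higher in A375, 95% counting interval 25.4 to 781) and EGF (log2 fold change -1.53 ± 0.26 SE, adjusted p = 6.7e-05) were also higher in A375, while EREG and BTC were not called. VEGFC, a lymphangiogenic factor, had 1.73 and 1.70 CPM in CHL1 against 222 and 171 CPM in A375 (log2 fold change -6.84 ± 0.33 SE, adjusted p = 3.3e-12). In CHL1, NRG1, the neuregulin that binds ERBB3 and ERBB4, had 705 and 762 CPM in CHL1 against 95 and 93.9 CPM in A375 (log2 fold change 2.96 ± 0.35 SE, adjusted p = 8.1e-07). FGF9, a ligand of FGF receptors, had 56.8 and 70.8 CPM in CHL1 against 0.193 and 0 CPM in A375 (log2 fold change 9.29 ± 0.47 SE, adjusted p = 7.2e-12). Both genes kept that direction after 6 days, NRG1 with a log2 fold change of 4.58 and FGF9 with means of 57.5 CPM in CHL1 and 0.0134 CPM in A375. PDGFD was higher in CHL1 (8.95 and 8.19 CPM in CHL1 against 0.483 and 0.489 CPM in A375), but 16.5 and 8.33 CPM was measured in A375 control_6d, where the sign turned (-0.54).

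Secreted cytokines and chemokines were higher in A375 in 14 of 26 measured genes and in CHL1 in 5. IL8, a neutrophil chemokine induced by NF-kB and AP-1, had 0.0691 and 0.106 CPM in CHL1 against 11.7 and 14.6 CPM in A375 (log2 fold change -7.15 ± 0.54 SE, adjusted p = 2.8e-09). IL11, a cytokine of the IL-6 family, had 0.553 and 0.603 CPM in CHL1 against 29.1 and 44.5 CPM in A375 (log2 fold change -5.98 ± 0.35 SE, adjusted p = 5.6e-11). IL6 itself was higher in CHL1, with 22 and 15.8 CPM in CHL1 against 0.434 and 0.538 CPM in A375 (log2 fold change 5.27 ± 0.38 SE, adjusted p = 7.8e-10). CXCL12, the chemokine that binds CXCR4, had 214 and 172 CPM in CHL1 and 0 CPM in both A375 libraries (at least 1323-fold higher in CHL1). After 6 days both were again called higher in CHL1, IL6 with means of 21.1 CPM there and 0.0267 CPM in A375 and CXCL12 with means of 285 and 0 CPM. IL1B (-3.48), CXCL1 (-6.16) and IL24 (495-fold higher in A375, 95% counting interval 88.4 to 19624) were higher in A375.

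**Figure D4:**
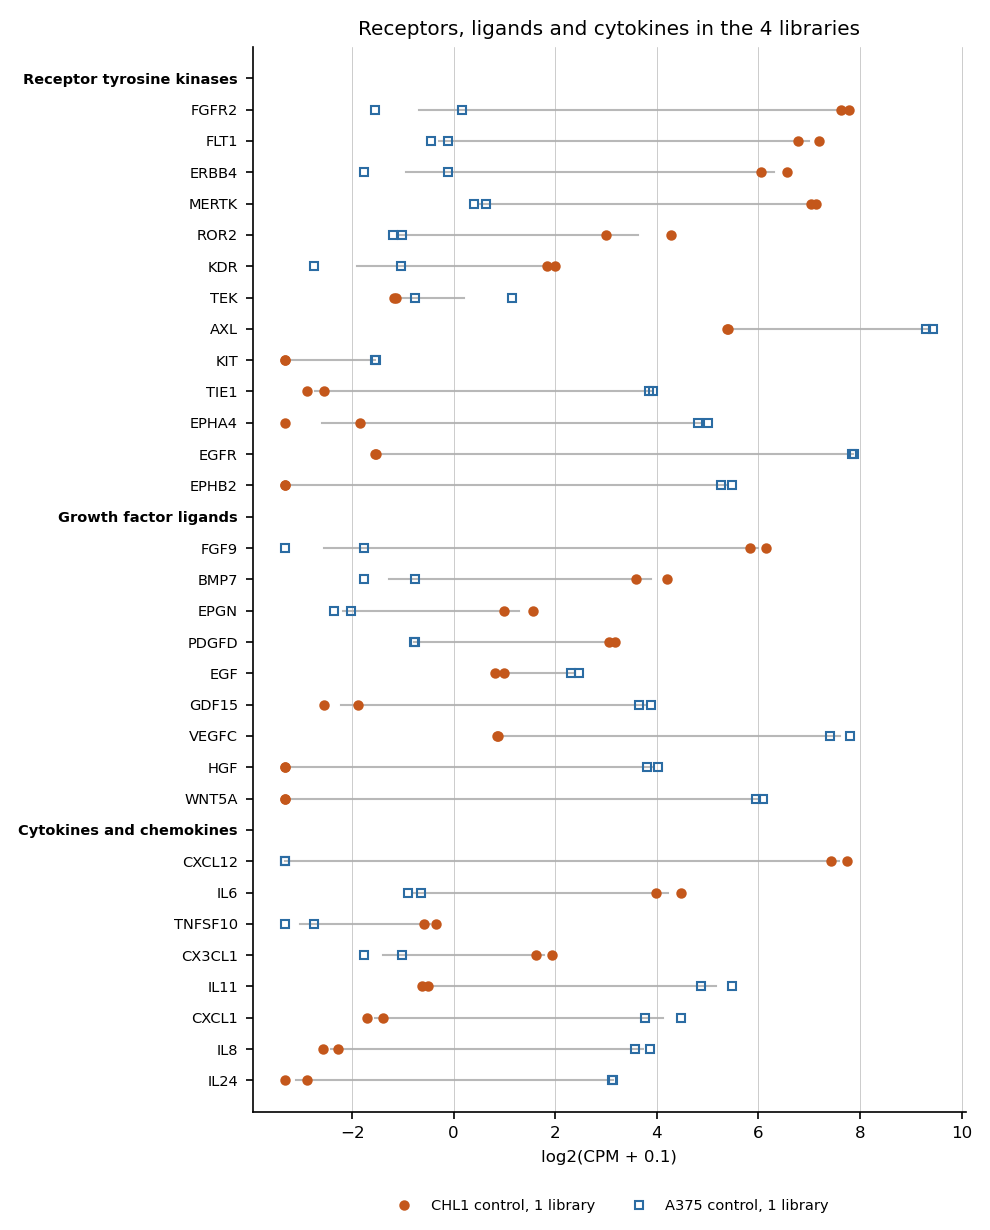
Level in each of the 4 libraries, as log2(CPM + 0.1), of the named receptor tyrosine kinases, growth factor ligands and cytokines; circles are CHL1 and squares A375 libraries, and a grey line joins the group means. FGFR2, FLT1, ERBB4, MERTK, FGF9 and CXCL12 lie to the right for CHL1 and EPHB2, EGFR, HGF and VEGFC to the right for A375.

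The genes around the drug targets of the series came next. CDK6, a target of palbociclib, had 11.8 and 9.79 CPM in CHL1 against 562 and 604 CPM in A375 (log2 fold change -5.76 ± 0.21 SE, adjusted p = 1.2e-13). CDK4, the other target, had 81.2 and 64.1 CPM in CHL1 against 107 and 129 CPM in A375 (log2 fold change -0.70 ± 0.22 SE, adjusted p = 0.0092). CDK6 was thus far higher in A375, with a log2 fold change of -5.16 after 6 days and -6.64 against A375 control_6d. The call for CDK4 was lost without A375 replicate 2 or CHL1 replicate 2, and its sign turned against A375 control_6d (0.79). CDKN1A, which encodes the CDK inhibitor p21 and is a p53 target, had 19.9 and 18.5 CPM in CHL1 against 125 and 131 CPM in A375 (log2 fold change -2.74 ± 0.31 SE, adjusted p = 4.4e-07). CDKN1B, which encodes p27, had 76.5 and 68.8 CPM in CHL1 against 49 and 56.9 CPM in A375 and was not called in the controls. RB1, the pocket protein that CDK4 and CDK6 phosphorylate, had 125 and 105 CPM in CHL1 against 105 and 116 CPM in A375 and was not called (adjusted p = 0.86, edgeR), but was lower in CHL1 against A375 control_6d (-1.61).

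Among the E2F factors, which RB1 and its relatives bind, E2F2 (log2 fold change 1.28 ± 0.24 SE, adjusted p = 0.00017), E2F3 (log2 fold change 1.37 ± 0.16 SE, adjusted p = 5.4e-07) and E2F5 (log2 fold change 0.94 ± 0.25 SE, adjusted p = 0.003) were higher in CHL1. E2F4, a repressive E2F like E2F5, had 42 and 39.9 CPM in CHL1 against 136 and 159 CPM in A375 (log2 fold change -1.85 ± 0.24 SE, adjusted p = 2.8e-06) and was higher in A375. CCNE2, a cyclin of CDK2, had 35.3 and 30.3 CPM in CHL1 against 12.7 and 13.4 CPM in A375 (log2 fold change 1.33 ± 0.23 SE, adjusted p = 6.1e-05). Against A375 control_6d neither CCNE2 (0.34) nor E2F5 (0.31) was called. In these genes the libraries of the lines did not overlap. Of the 30 genes of the list, 13 were higher in CHL1 and 10 in A375, beside 29.3% and 29.6% of all genes. Against A375 control_6d the counts were 8 and 9. CDKN2A and CDKN2B were not analysed here. CDKN2C, an INK4 inhibitor of CDK4 and CDK6, had a log2 fold change of -0.92 in the controls and 1.01 after 6 days, both called.

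Proliferation genes were called in both directions. In the cell cycle list 8 of 40 genes were higher in CHL1 and 10 in A375, beside 29.3% and 29.6% of all genes, with a median of -0.05. Against A375 control_6d 17 were higher in CHL1 and 3 in A375, so that the balance of the list did not hold there. MKI67, the proliferation marker Ki-67, had 411 and 353 CPM in CHL1 against 457 and 518 CPM in A375, TOP2A had 495 and 453 CPM in CHL1 against 474 and 563 CPM in A375 and PCNA had 177 and 151 CPM in CHL1 against 154 and 200.3 CPM in A375, and none of them was called. CDC25B, a phosphatase that activates CDK1, had 83.2 and 72.4 CPM in CHL1 against 286 and 331 CPM in A375 (log2 fold change -1.99 ± 0.24 SE, adjusted p = 8.4e-07), and CDC6, a licensing factor, had 164 and 144 CPM in CHL1 against 72.9 and 88 CPM in A375 (log2 fold change 0.93 ± 0.19 SE, adjusted p = 0.00033). CDC45, a helicase subunit, had 55.4 and 53.9 CPM in CHL1 against 43.1 and 44.2 CPM in A375 and was not called (adjusted p = 0.11, edgeR). CDC27, a subunit of the anaphase-promoting complex, had 253 and 236 CPM in CHL1 against 156 and 174 CPM in A375 (log2 fold change 0.57 ± 0.19 SE, adjusted p = 0.016), a call that was lost without A375 replicate 1 or CHL1 replicate 1 and that turned to a log2 fold change of -0.34, not called, against A375 control_6d. Fitted without the 4 libraries of A375 control_6d and CHL1 PRMT5i, which carried trends with GC content, 28 cell cycle genes were called in place of 18 where 13683 of all genes were called, and with only the 4 libraries compared 29 were called where 13959 of all genes were. The called share of the list was thus below that over all genes with all 18 libraries and above it in these fits. After 6 days of palbociclib 23 of the list were higher in CHL1 and 2 in A375.

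PRMT5 and its cofactors differed by less than 1 log2 unit. PRMT5, which dimethylates arginines symmetrically, had 9.46 and 7.91 CPM in CHL1 against 11.7 and 13.9 CPM in A375 (log2 fold change -0.56 ± 0.23 SE, adjusted p = 0.045). This small difference was not called after 6 days (-0.38), had the other sign against A375 control_6d (0.58) and lost its call when A375 replicate 2 or either CHL1 library was left out. WDR77, the obligate partner of PRMT5 in the methylosome, had 41.2 and 41.1 CPM in CHL1 against 31.6 and 36 CPM in A375 and was not called (adjusted p = 0.17, edgeR), and RIOK1, a substrate adaptor, had 40.9 and 34.4 CPM in CHL1 against 32.2 and 39.2 CPM in A375. CLNS1A, the adaptor for spliceosomal Sm proteins, had 92.8 and 80.7 CPM in CHL1 against 155 and 173 CPM in A375 (log2 fold change -0.92 ± 0.17 SE, adjusted p = 0.00011). U2AF2, a splicing factor, had 37.1 and 32.7 CPM in CHL1 against 80.0 and 94 CPM in A375 (log2 fold change -1.32 ± 0.24 SE, adjusted p = 0.00011), and CDK16, a kinase of the PCTAIRE group, had 88.8 and 76.6 CPM in CHL1 against 108 and 121 CPM in A375 and was not called (adjusted p = 0.056, edgeR).

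The same list held polyamine and methionine salvage genes. ODC1, ornithine decarboxylase, the first enzyme of polyamine synthesis and a known MYC target, had 1493 and 1738 CPM in CHL1 against 38.8 and 54.5 CPM in A375 (log2 fold change 5.11 ± 0.40 SE, adjusted p = 2.9e-09). SMS, spermine synthase, had 129 and 111 CPM in CHL1 against 320.4 and 389 CPM in A375 (log2 fold change -1.56 ± 0.20 SE, adjusted p = 2.2e-06). MRI1, a methionine salvage isomerase, had 13.4 and 13.4 CPM in CHL1 against 53.5 and 57.2 CPM in A375 (log2 fold change -2.04 ± 0.23 SE, adjusted p = 3.2e-07), and ENOPH1, another enzyme of that pathway, was higher in CHL1 (log2 fold change 0.96 ± 0.18 SE, adjusted p = 0.00015). All these genes kept their direction after 6 days, ODC1 with a log2 fold change of 4.96. Of 25 genes, 5 were higher in CHL1 and 10 in A375, in all a share near the 58.9% over all genes. Against A375 control_6d the counts were 8 and 7. MTAP, the salvage enzyme of chromosome 9p21, was not analysed here.

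Around MTAP and CDKN2A on 9p21, 11 neighbours were measured. Of these, 4 were higher in A375 and 2 in CHL1, in all a share near the 58.9% over all genes. Against A375 control_6d the counts were 7 and 1. KLHL9, an adaptor of a ubiquitin ligase, had 76 and 74.8 CPM in CHL1 against 83.8 and 95.8 CPM in A375, DMRTA1 had 6.25 and 6.10 CPM in CHL1 against 6.42 and 5.82 CPM in A375 and ELAVL2, a neuronal RNA-binding protein gene, had 15.2 and 18.2 CPM in CHL1 against 14.9 and 16.2 CPM in A375, and none was called. Against A375 control_6d DMRTA1 was lower in CHL1 (-3.47). CDKN2B-AS1, the antisense RNA of the CDKN2B locus, had 22.2 and 26.1 CPM in CHL1 against 0.145 and 0 CPM in A375 (331-fold higher in CHL1, 95% counting interval 113 to 1608). MIR31HG, the host RNA of miR-31, had 24.4 and 34.3 CPM in CHL1 against 357 and 367 CPM in A375 (log2 fold change -3.62 ± 0.26 SE, adjusted p = 7.9e-10). The library kit is not described as marking strand, and without strand in the library the reads of an antisense RNA and of the gene it overlaps cannot be told apart.

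Targets of p53 were more often higher in A375, the line described as wild type for p53. Of 29 measured, 16 were higher in A375 and 3 in CHL1, beside 29.6% and 29.3% of all genes, with a median of -0.88. EDA2R, a member of the TNF receptor family, had 0.0345 and 0 CPM in CHL1 against 12.5 and 14.8 CPM in A375 (777-fold higher in A375, 95% counting interval 139 to 30753). PLK2, a polo-like kinase, had 2.94 and 2.69 CPM in CHL1 against 157 and 149 CPM in A375 (log2 fold change -5.76 ± 0.23 SE, adjusted p = 2.8e-13), and FAS, the CD95 death receptor, had 0.691 and 1.10 CPM in CHL1 against 12 and 13.2 CPM in A375 (log2 fold change -3.81 ± 0.34 SE, adjusted p = 1.8e-08). DDB2, a DNA damage recognition protein, had 19 and 19 CPM in CHL1 against 70.4 and 63.4 CPM in A375 (log2 fold change -1.81 ± 0.20 SE, adjusted p = 3.4e-07), and RPS27L had 15.8 and 14.4 CPM in CHL1 against 41.6 and 49.7 CPM in A375 (log2 fold change -1.60 ± 0.21 SE, adjusted p = 2.3e-06). In each of these both A375 libraries lay above both CHL1 libraries. MDM2, the ubiquitin ligase that degrades p53, had 129 and 115 CPM in CHL1 against 142 and 156 CPM in A375 and was not called in the controls (adjusted p = 0.17, edgeR), while its log2 fold change after 6 days was -1.28 and called. MDM4, its partner, had 101 and 103 CPM in CHL1 against 183 and 162 CPM in A375 (log2 fold change -0.76 ± 0.20 SE, adjusted p = 0.0028). SESN1 (log2 fold change 1.62 ± 0.18 SE, adjusted p = 2.6e-07) and GADD45B (log2 fold change 1.27 ± 0.33 SE, adjusted p = 0.0031) were higher in CHL1. After 6 days 19 targets were higher in A375 and 3 in CHL1, 15 and 3 of them in the same direction as in the controls.

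The BCL2 family, which sets the threshold of apoptosis, showed opposite calls among its protective members. BCL2 had 279 and 364 CPM in CHL1 against 29.3 and 27.4 CPM in A375 (log2 fold change 3.50 ± 0.23 SE, adjusted p = 2e-10) and was higher in CHL1, while MCL1 had 159 and 149.6 CPM in CHL1 against 293 and 382 CPM in A375 (log2 fold change -1.13 ± 0.25 SE, adjusted p = 0.00085) and BCL2L1, which encodes BCL-XL, had 55.5 and 50.7 CPM in CHL1 against 124 and 122 CPM in A375 (log2 fold change -1.21 ± 0.27 SE, adjusted p = 0.00094). Among the killers, BOK (log2 fold change 2.29 ± 0.26 SE, adjusted p = 4.1e-07) and BCL2L11, which encodes BIM (log2 fold change 1.04 ± 0.19 SE, adjusted p = 0.00012), were higher in CHL1. The p53-induced BBC3, which encodes PUMA, had 1.80 and 2.55 CPM in CHL1 against 9.36 and 9.58 CPM in A375 (log2 fold change -2.12 ± 0.32 SE, adjusted p = 1.7e-05), and BAX had 19.5 and 18.8 CPM in CHL1 against 48.5 and 54.9 CPM in A375 (log2 fold change -1.43 ± 0.26 SE, adjusted p = 9.5e-05). Against A375 control_6d neither BAX (-0.34) nor BCL2L1 (-0.10) was called. In all, 8 of 18 were higher in CHL1 and 6 in A375, beside 29.3% and 29.6% of all genes.

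Antigen presentation genes were more often higher in A375. For class I, 12 of 22 genes were higher in A375 and 4 in CHL1 (median -0.53); against A375 control_6d the median was 0.33, so the direction of the list did not hold there. HLA genes share sequence, and their counts are uncertain. B2M, the class I light chain, had 192 and 168 CPM in CHL1 against 320.1 and 379.6 CPM in A375 (log2 fold change -0.96 ± 0.21 SE, adjusted p = 0.00067), and NLRC5, the class I transactivator, had 7.32 and 7.13 CPM in CHL1 against 45.1 and 37.9 CPM in A375 (log2 fold change -2.52 ± 0.23 SE, adjusted p = 2.5e-08). CD274, which encodes PD-L1, had 0.311 and 0.993 CPM in CHL1 against 8.74 and 8.26 CPM in A375 (log2 fold change -3.70 ± 0.37 SE, adjusted p = 7.2e-08). CANX (log2 fold change 1.16 ± 0.21 SE, adjusted p = 9.5e-05) and PDIA3 (log2 fold change 1.33 ± 0.24 SE, adjusted p = 0.00012), chaperones of the endoplasmic reticulum that help class I to fold, were higher in CHL1.

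For class II, 10 of 19 genes were higher in A375 and 0 in CHL1 with edgeR, which was also 0 at an unadjusted p below 0.05, with DESeq2 and with voom. CIITA, the transactivator on which class II expression depends, had 0.691 and 0.674 CPM in CHL1 against 15.3 and 15.8 CPM in A375 (log2 fold change -4.50 ± 0.28 SE, adjusted p = 1.2e-10). CD74, the invariant chain, had 0.933 and 0.851 CPM in CHL1 against 61.6 and 76.1 CPM in A375 (log2 fold change -6.26 ± 0.30 SE, adjusted p = 3.5e-12), and HLA-DRA had 0 CPM in both CHL1 libraries and 11.2 and 14.7 CPM in A375 (at least 124-fold higher in A375). Both CHL1 libraries were below 1 CPM in each of these. HLA-DQA1 and HLA-DQB2 had 0 counts in all 4 libraries, although HLA-DQA1 was called against A375 control_6d (0.270 and 0.157 CPM there), as were 15 class II genes in all. The median was also taken with low counts treated apart. Genes at or under the floor in both lines were set to a log2 fold change of 0. Those at 0 in 1 line only were set to their bound, and those with 1 to 3 counts to their raw ratio. The median was then -0.49 in place of -2.60. After 6 days 17 class II genes were higher in A375, with log2 fold changes of -8.20 for CIITA and -10.15 for CD74.

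Interferon-stimulated and nucleic acid sensing genes were called in both directions. Of 32 genes, 14 were higher in A375 and 7 in CHL1, beside 29.6% and 29.3% of all genes. Against A375 control_6d the counts were 13 and 11. TMEM173, which encodes STING, had 3.11 and 2.84 CPM in CHL1 against 36.5 and 36.6 CPM in A375 (log2 fold change -3.62 ± 0.27 SE, adjusted p = 1.6e-09). IFITM2, an antiviral membrane protein, had 1.04 and 0.851 CPM in CHL1 against 13 and 13.1 CPM in A375 (log2 fold change -3.78 ± 0.36 SE, adjusted p = 4.1e-08), and MX1 had 1.28 and 1.17 CPM in CHL1 against 6.66 and 6.26 CPM in A375 (log2 fold change -2.39 ± 0.27 SE, adjusted p = 3.4e-07). CMPK2, a mitochondrial nucleotide kinase next to RSAD2, had 18.7 and 18.6 CPM in CHL1 against 1.64 and 1.17 CPM in A375 (log2 fold change 3.72 ± 0.28 SE, adjusted p = 1.7e-09), and RSAD2, viperin, had 3.73 and 3.12 CPM in CHL1 against 0.386 and 0.293 CPM in A375.

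Collagens were called in both directions. Of 40 collagen genes, 19 were higher in CHL1 and 15 in A375, beside 29.3% and 29.6% of all genes, and after 6 days 15 and 15. Against A375 control_6d the counts were 12 and 14, near the share of 61% over all genes called there. Those higher in CHL1 included cartilage and basement membrane collagens. Beside COL11A1, COL11A2 had 206 and 201 CPM in CHL1 against 3.96 and 3.32 CPM in A375 (log2 fold change 5.80 ± 0.36 SE, adjusted p = 1e-10), COL14A1 had 598 and 667 CPM in CHL1 against 0.193 and 0.195 CPM in A375 (log2 fold change 11.63 ± 0.34 SE, adjusted p = 1.5e-14) and COL18A1, the source of endostatin, had 495 and 605 CPM in CHL1 against 17.2 and 17.2 CPM in A375 (log2 fold change 5.00 ± 0.27 SE, adjusted p = 1.4e-11). COL25A1, a transmembrane collagen, had 141 and 148 CPM in CHL1 against 0.145 and 0.0977 CPM in A375 (log2 fold change 10.16 ± 0.37 SE, adjusted p = 1.3e-13). In A375, COL13A1, another transmembrane collagen, had 0.0691 and 0.213 CPM in CHL1 against 159 and 151 CPM in A375 (log2 fold change -10.07 ± 0.55 SE, adjusted p = 1.9e-11), and COL6A3, a microfibrillar chain, had 0.760 and 0.674 CPM in CHL1 against 38.3 and 43.8 CPM in A375 (log2 fold change -5.83 ± 0.24 SE, adjusted p = 4.1e-13). The main basement membrane chains COL4A1 and COL4A2 were abundant in both lines and not called. COL1A1, the main chain of type I collagen, was low in CHL1 (1.42 and 1.63 CPM) and higher in A375 (10.5 and 10.7 CPM), but had 1.68 and 1.53 CPM in A375 control_6d.

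Integrins and laminins were mostly higher in A375, 20 of 34, with 6 higher in CHL1 and a median of -1.32. ITGA3, a laminin receptor, had 1.80 and 1.70 CPM in CHL1 against 800.1 and 793 CPM in A375 (log2 fold change -8.83 ± 0.24 SE, adjusted p = 1.5e-14). ITGB3, the beta3 chain that marks invasive melanoma, had 2.73 and 3.05 CPM in CHL1 against 104 and 98.6 CPM in A375 (log2 fold change -5.13 ± 0.23 SE, adjusted p = 1.3e-12). LAMA1 had 0.0345 and 0 CPM in CHL1 against 116 and 99.4 CPM in A375 (6165-fold higher in A375, 95% counting interval 1106 to 243560.0), and LAMB3 had 0.656 and 0.390 CPM in CHL1 against 52.4 and 63.1 CPM in A375 (log2 fold change -6.77 ± 0.39 SE, adjusted p = 4.5e-11). ITGA9, a receptor for tenascin C and VCAM1, had 138 and 145 CPM in CHL1 against 3.48 and 1.95 CPM in A375 (log2 fold change 5.70 ± 0.31 SE, adjusted p = 1.9e-11), and was higher in CHL1. ITGB1, the common beta chain, had 454 and 437 CPM in CHL1 against 345 and 414 CPM in A375 and was not called.

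Among cadherins and adhesion molecules, 17 of 34 were higher in A375 and 12 in CHL1. The adhesion gene CHL1, a relative of L1CAM that happens to share the name of the cell line, had 311 and 303 CPM in the CHL1 line and 0.434 and 0.733 CPM in A375 (log2 fold change 9.03 ± 0.34 SE, adjusted p = 1.9e-13). L1CAM had the opposite difference, with 11.5 and 10.5 CPM in CHL1 against 347 and 352 CPM in A375 (log2 fold change -4.99 ± 0.28 SE, adjusted p = 2.3e-11). CDH19, a cadherin of Schwann cell precursors, had 821 and 756 CPM in CHL1 against 6.03 and 6.16 CPM in A375 (log2 fold change 7.01 ± 0.33 SE, adjusted p = 2.3e-12), and CDH11 had 274 and 331 CPM in CHL1 against 30.9 and 31.2 CPM in A375 (log2 fold change 3.28 ± 0.23 SE, adjusted p = 7.7e-10). CDH13, T-cadherin, had 60.1 and 55.4 CPM in CHL1 against 844 and 661 CPM in A375 (log2 fold change -3.70 ± 0.29 SE, adjusted p = 2.5e-09), and N-cadherin CDH2 had 82.5 and 88.7 CPM in CHL1 against 154 and 149 CPM in A375 (log2 fold change -0.83 ± 0.17 SE, adjusted p = 0.00031). MCAM, a melanoma adhesion molecule, had 624 and 593 CPM in CHL1 against 218 and 254 CPM in A375 (log2 fold change 1.37 ± 0.21 SE, adjusted p = 1.6e-05).

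Of 30 matrix proteases and inhibitors, 17 were higher in A375 and 6 in CHL1. MMP2, a gelatinase, had 9.29 and 8.19 CPM in CHL1 against 251 and 254 CPM in A375 (log2 fold change -4.85 ± 0.24 SE, adjusted p = 4.9e-12), and SERPINE2, a protease inhibitor, had 32 and 33.5 CPM in CHL1 against 2995 and 3202 CPM in A375 (log2 fold change -6.56 ± 0.24 SE, adjusted p = 1.7e-13). ADAM19 had 0.276 and 0.461 CPM in CHL1 against 190.3 and 181 CPM in A375 (log2 fold change -8.96 ± 0.39 SE, adjusted p = 1e-12). Of the membrane-type metalloproteases, 3 were higher in CHL1, with MMP14 at 399 and 366 CPM in CHL1 against 95.3 and 103 CPM in A375 (log2 fold change 1.95 ± 0.19 SE, adjusted p = 7.2e-08), MMP15 at 105 and 99.3 CPM in CHL1 against 4.87 and 4.89 CPM in A375 and MMP17 at 79.5 and 81.5 CPM in CHL1 against 5.36 and 4.74 CPM in A375. MMP14 activates the pro-form of MMP2, and these genes were called in opposite directions. ADAMTS9, a proteoglycan-cleaving protease, had 207 and 226 CPM in CHL1 against 2.27 and 2.25 CPM in A375 (log2 fold change 6.58 ± 0.29 SE, adjusted p = 9e-13).

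Cancer-testis antigens, germline genes that tumours express after loss of promoter methylation, were a group with many members at 0 in CHL1. Of 34 measured, 25 were higher in A375 and 3 in CHL1, with a median of -5.83. It was -2.95 with genes of low counts treated as described for class II. In 12 of them 1 line was at 0 and the other above the floor. Beside MAGEA4, PRAME had 0.0345 and 0.0355 CPM in CHL1 against 127 and 125 CPM in A375 (3604-fold higher in A375, 95% counting interval 997 to 29765), MAGEC2 had 0 CPM in both CHL1 libraries and 110.3 and 133 CPM in A375 (at least 1161-fold higher in A375) and PAGE5 had 0 CPM in both CHL1 libraries and 39.7 and 46 CPM in A375 (at least 408-fold higher in A375). Both lines expressed MAGEA3, with 90.7 and 78 CPM in CHL1 against 80.9 and 107 CPM in A375, and MAGEA6, with 44.2 and 38.9 CPM in CHL1 against 62.6 and 76.7 CPM in A375; MAGEA6 was called higher in A375, but not against A375 control_6d (-0.39). Near-identical copies such as MAGEA3 and MAGEA6, CTAG1A and CTAG1B and the SPANX and GAGE genes share reads, and their single values are uncertain. TEX15, a meiotic gene, had 76 and 81.5 CPM in CHL1 against 4.15 and 5.82 CPM in A375 (log2 fold change 3.98 ± 0.28 SE, adjusted p = 6.2e-10), and ACTL8 had 34 and 31.6 CPM in CHL1 against 0.772 and 1.47 CPM in A375 (log2 fold change 4.87 ± 0.40 SE, adjusted p = 4.7e-09), both higher in CHL1. After 6 days 22 of the A375-high antigens and 2 of the CHL1-high ones had the same direction.

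HOX genes record position along the body axis. Of 18 measured, 8 were higher in A375 and 3 in CHL1, in all a share near the 58.9% over all genes. All 8 and 3 had the same direction after 6 days. HOXB13 had 0.138 and 0.213 CPM in CHL1 against 6.23 and 6.26 CPM in A375 (log2 fold change -5.12 ± 0.44 SE, adjusted p = 9.5e-09), and HOXB2 had 0.484 and 0.851 CPM in CHL1 against 11.9 and 13.3 CPM in A375 (log2 fold change -4.23 ± 0.28 SE, adjusted p = 3.3e-10). HOXB7, a regulator of FGF2 in melanoma, had 31.1 and 31.2 CPM in CHL1 against 10.3 and 11.9 CPM in A375 (log2 fold change 1.49 ± 0.18 SE, adjusted p = 1.2e-06).

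Most glycolysis genes were higher in A375. Of 26 genes, 20 were higher in A375 and 1 in CHL1, with a median of -1.09. GAPDH had 809 and 647 CPM in CHL1 against 2578 and 3331 CPM in A375 (log2 fold change -2.02 ± 0.24 SE, adjusted p = 7.6e-07), GPI had 72 and 67.8 CPM in CHL1 against 254 and 294 CPM in A375 (log2 fold change -1.97 ± 0.24 SE, adjusted p = 1e-06) and PKM, pyruvate kinase, had 1111 and 999.6 CPM in CHL1 against 2366 and 2886 CPM in A375 (log2 fold change -1.32 ± 0.24 SE, adjusted p = 0.00011). Among genes induced by hypoxia, CA9, a carbonic anhydrase, had 0.0345 and 0.0709 CPM in CHL1 against 32.2 and 37.7 CPM in A375 (665-fold higher in A375, 95% counting interval 227 to 3229.7), and SLC16A3, a lactate exporter, had 1.04 and 0.851 CPM in CHL1 against 17.1 and 18.8 CPM in A375 (log2 fold change -4.24 ± 0.33 SE, adjusted p = 2.2e-09). LDHA had 596 and 532 CPM in CHL1 against 807 and 1122 CPM in A375 (log2 fold change -0.77 ± 0.23 SE, adjusted p = 0.0069), whereas LDHB, the subunit that favours lactate oxidation, had 2871 and 2722 CPM in CHL1 against 675 and 838 CPM in A375 (log2 fold change 1.89 ± 0.23 SE, adjusted p = 1.4e-06). Against A375 control_6d the median of the list was -0.15 and 9 genes were higher in A375, with log2 fold changes of -0.12 for PKM and 0.06 for LDHA, neither called. The call for LDHA was also lost without replicate 2 of either line. After 6 days of palbociclib 16 were higher in A375 and 3 in CHL1. The part of medium and library set in this difference was not tested.

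Cholesterol synthesis genes were called in both directions, more of them higher in CHL1. Of 24 genes, 8 were higher in CHL1 and 3 in A375, beside 29.3% and 29.6% of all genes. After 6 days of palbociclib the counts were 16 and 1, beside 29.2% and 31.9% of all genes. Against A375 control_6d the counts were 14 and 4, and without A375 replicate 2 or without CHL1 replicate 1 the number called was 7. SQLE, squalene epoxidase, had 96.2 and 95.2 CPM in CHL1 against 36.2 and 42.6 CPM in A375 (log2 fold change 1.28 ± 0.18 SE, adjusted p = 6.7e-06), MSMO1 had 65.3 and 75.6 CPM in CHL1 against 23.9 and 23.9 CPM in A375 (log2 fold change 1.56 ± 0.22 SE, adjusted p = 8.6e-06) and the transcription factor SREBF2 had 291 and 275 CPM in CHL1 against 198 and 188 CPM in A375 (log2 fold change 0.55 ± 0.18 SE, adjusted p = 0.014), a call that was lost when either A375 library or CHL1 replicate 1 was left out.

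Stress pathways were mixed. In the ATF4 list 8 of 31 genes were higher in CHL1 and 11 in A375, near the shares over all genes. Against A375 control_6d these counts were 17 and 4, so that the balance of the list did not hold there. ATF4 had 397 and 356 CPM in CHL1 against 172 and 199 CPM in A375 (log2 fold change 1.02 ± 0.20 SE, adjusted p = 0.0002). CTH and CBS, the enzymes of transsulfuration that make cysteine from homocysteine, had 161 and 171 CPM in CHL1 against 8.35 and 8.36 CPM in A375 (log2 fold change 4.31 ± 0.21 SE, adjusted p = 3.9e-12) and 141 and 159 CPM in CHL1 against 30.4 and 31.7 CPM in A375 (log2 fold change 2.27 ± 0.25 SE, adjusted p = 2.8e-07). DDIT4, an inhibitor of mTORC1, had 6.04 and 6.84 CPM in CHL1 against 57.2 and 75.5 CPM in A375 (log2 fold change -3.36 ± 0.33 SE, adjusted p = 6e-08), and TRIB3 had 19.2 and 18.2 CPM in CHL1 against 93.6 and 98.2 CPM in A375 (log2 fold change -2.36 ± 0.26 SE, adjusted p = 2.7e-07). In the NRF2 list 10 of 28 were higher in CHL1 and 10 in A375. NFE2L2, which encodes NRF2, had 208 and 205 CPM in CHL1 against 93.1 and 96.1 CPM in A375 (log2 fold change 1.13 ± 0.17 SE, adjusted p = 1.7e-05), and GSR, glutathione reductase, was higher in CHL1 (log2 fold change 1.22 ± 0.16 SE, adjusted p = 3e-06). The aldo-keto reductase AKR1C3 had 0.0345 and 0 CPM in CHL1 against 15.2 and 17.2 CPM in A375 (924-fold higher in A375, 95% counting interval 165 to 36564), AKR1C2 was at 0 in both CHL1 libraries, and the transporters ABCC2 (log2 fold change -6.69 ± 0.30 SE, adjusted p = 1.1e-12) and ABCC3 (log2 fold change -7.06 ± 0.43 SE, adjusted p = 7.4e-11) were higher in A375. The AKR1C genes are close paralogs that share reads.

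Markers of other cell types were measured beside these groups. Keratinocyte markers were higher in A375 in 5 of 5 measured genes, with a summed level of 7.45 to 8.05 CPM in CHL1 and 31.8 to 38.6 CPM in A375. KRT5 was at 0 in both CHL1 libraries, and its call was lost when A375 replicate 2 or either CHL1 library was left out, and it was not called against A375 control_6d. Fibroblast markers were higher in A375 in 7 of 9 and in CHL1 in 1, with sums of 20.2 to 23.6 and 44.8 to 48.9 CPM. POSTN and PDGFRA were at 0 in both CHL1 libraries. COL3A1 and DCN, defining fibroblast genes, were at most 0.293 CPM in each of the 4 libraries compared. Of 6 immune markers measured, 2 were higher in CHL1 and 2 in A375. Their sums were 10.9 to 11.6 CPM in CHL1 and 5.96 to 6.90 CPM in A375. PTPRC, the leukocyte gene CD45, had 7.77 and 7.41 CPM in CHL1 against 0.145 and 0.147 CPM in A375. Most of the CHL1 sum thus came from PTPRC alone. Endothelial markers summed to 28.8 to 29.4 and 28.2 to 31.4 CPM, with 4 of 7 higher in A375 and 2 in CHL1. The part of other cells in the collagen, adhesion and cytokine results was not tested.

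Expression was also compared along the chromosomes, since melanoma lines differ in chromosome copy number. Among 13414 genes that averaged 1 CPM or more and had a position in GENCODE 44 lifted to GRCh37, the median log2 fold change was taken for each of 41 chromosome arms. It was highest for 8p, at 0.89, where 113 of 176 genes were higher in CHL1 and 24 in A375. The next arms were 2q at 0.72 (324 and 85 of 540 genes), 6q at 0.70, 18q at 0.66 and 8q at 0.62. At the other end were 19q at -0.61, 16q at -0.55, 20p at -0.52 and 17p at -0.52. The arm 9p, which carries the 9p21 genes, stood at -0.40. In the 6-day comparison the medians were 0.92 for 8p, 0.71 for 2q, -0.49 for 19q and -0.37 for 9p. Over the 41 arms the medians of both comparisons had a Pearson r of 0.955 and the same sign in 38; both comparisons share the lines and the gene content of the arms, and no p is given. Between the 2 A375 controls, which hold the same line, arm medians still ranged from -0.81 to 0.92, with 13q the highest (0.92) and 19p the lowest (-0.81). Against A375 control_6d, the medians were 0.84 for 8p, 0.59 for 2q, 0.11 for 6q, 0.29 for 18q and 0.28 for 8q. At the other end they were -0.12 for 19q, -0.21 for 16q, -0.51 for 20p and 0.02 for 17p, and 9p had -0.38. The medians of the control comparison were also taken with counts corrected for each library's trend with GC content. They were then 0.80 for 8p, 0.615 for 2q, 0.54 for 6q, 0.50 for 18q and 0.57 for 8q. At the other end they were -0.51 for 19q, -0.52 for 16q, -0.55 for 20p, -0.39 for 17p and -0.44 for 9p. Copy number was not measured in these libraries.

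**Figure D5:**
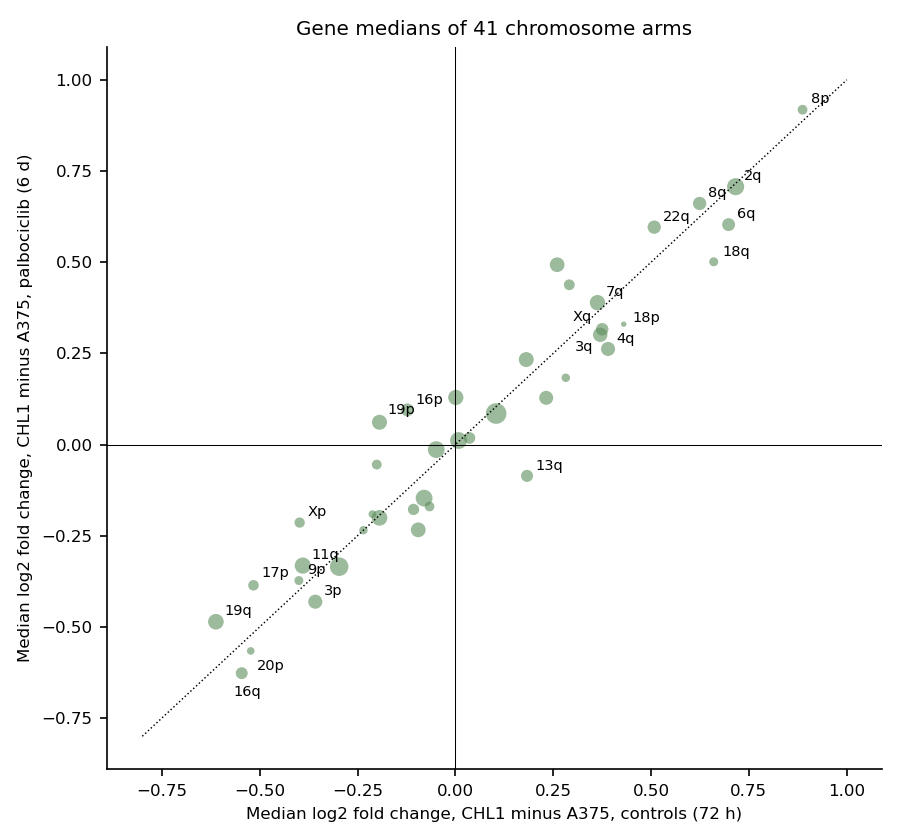
Median log2 fold change of CHL1 over A375 for each of 41 chromosome arms in the controls of 72 hours (horizontal axis) and after 6 days of palbociclib (vertical axis); a point's area grows with the number of genes, and the dotted line marks equal medians. Arms 8p and 2q lie at the upper right and 19q and 16q at the lower left.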

How the data were processed

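RNA was extracted with the RNeasy kit, TruSeq libraries were sequenced paired-end, and per the labels and methods the authors aligned reads to GRCh37/hg19 with HISAT2 and counted them per gene with HTSeq. The submitters' processing notes list FastQC 0.11.6, HISAT2 2.0.4, Picard 2.17.3, SAMtools 1.18, HTSeq 0.11.2 and edgeR. The deposited table holds raw counts per gene after the authors removed genes with low expression, so that genes low in all libraries could not be tested. The methods name HTSeq's default settings, which count by strand, and do not describe the library kit as marking strand.

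Counts of all 18 libraries in 9 groups were fitted with edgeR 4.0.16 in R 4.3.3 (TMM scaling, quasi-likelihood test, 1 mean per group, no further filter), and the contrast of CHL1 control against A375 control was tested with Benjamini-Hochberg adjustment over 20705 genes. The spread was thus shared by all groups, among them A375 control_6d with a biological coefficient of variation of 0.31. A line at 0 counts was set to 3 counts per library, and the fold is then a lower bound; with 1 to 3 counts a ratio with its 95% counting interval is given, which covers counting error only. The 12 genes with the largest ratio in each direction (called, libraries not overlapping, mean of at least 5 CPM), up to 4 per direction in each of 30 gene lists, genes named by the study and lineage markers were named by rule, the rest after their values were seen. The lists and the comparison were chosen with earlier results of these data known. Positions and GC content came from GENCODE 44 lifted to GRCh37, where 15208 genes matched by symbol and 1130 by an older symbol, and promoters from RefSeq on GRCh38.p14. Alternatives were DESeq2 1.42.0, voom in limma 3.58.1, other scalings, filters, samples and replicate blocks, and a GC correction. Replicate numbers did not pair the control libraries across the lines (r = -0.324 between same-numbered deviations). Within a line r ranged from -0.34 (CHL1 CDK4/6i of 72 hours with 6 days) to 0.48 (A375 control with A375 PRMT5i, both 72 hours). Some genes of these lists are counted but not reported here by name.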

Additional observations from a re-analysis of the deposited data

Results flagged for a closer look

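In 7 named genes the difference between the lines had opposite directions in the controls of 72 hours and after 6 days of palbociclib, and the difference between both comparisons was itself past the threshold (interaction contrast of edgeR's quasi-likelihood fit, Benjamini-Hochberg adjusted over all genes). CDKN2D, an INK4 inhibitor of CDK4 and CDK6, had log2 fold changes of -1.30 and 0.81 (adjusted p = 0.00048). INSIG1, a brake on sterol synthesis, had -0.51 and 2.04 (adjusted p = 4.4e-06), with 54.1 and 51.6 CPM in CHL1 against 72.4 and 77.9 CPM in A375 in the controls. KDR, a VEGF receptor, had 4.04 and -1.73 (adjusted p = 5.2e-06), with 3.45 and 3.86 CPM in CHL1 against 0.386 and 0.0489 CPM in A375 in the controls. On chromosome 9p, MLLT3 had 0.77 and -0.72 (adjusted p = 0.0022) and TUSC1 had -1.21 and 1.04 (adjusted p = 2e-05). Among the genes named after their values were seen, CDKN2C, another INK4 inhibitor, had -0.92 and 1.01 (adjusted p = 4e-05), and MET, the HGF receptor, had -0.49 and 0.50 (adjusted p = 0.0074). The control call of INSIG1 was lost without A375 replicate 2 or either CHL1 library, and that of MLLT3 without CHL1 replicate 2. Drug, time and, for A375, library set change together between both comparisons and cannot be told apart. Against A375 control_6d without drug the values were -0.08 for CDKN2D, -0.54 for INSIG1, -0.61 for KDR, -1.10 for MLLT3, -0.14 for TUSC1, -0.79 for CDKN2C and 0.06 for MET.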

How the results depend on the processing

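The number of DEGs between the control lines, 12205 with all 18 libraries, was 11879 with DESeq2, 12280 with voom, 12239 with median-of-ratios scaling, 12396 with upper-quartile scaling, 10201 after a filter of at least 1 CPM and 13959 with only the 4 libraries compared. Leaving out each library in turn gave 10207 to 10352. With only the 4 libraries compared, the genes higher in the 72-hour than in the 6-day A375 control numbered 3222 in place of 4879. Upper-quartile scaling moved the median of all genes from -0.02 to -0.125 and turned the median of the ATF4 list from 0.08 to -0.02. The labels' replicate numbers as a block gave 13270 DEGs among the 4 libraries and 13085 among the 14 numbered ones, and crossing the numbers, chosen after seeing the data as was the fit without the libraries with GC trends (13683 DEGs), gave 15337. Genes with a GC value gave 8443 DEGs without and 9206 with a GC correction.

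Of 323 named genes, 244 kept direction and side of the threshold in every alternative run and 79 did not. All that reversed did so with a change of the A375 control. With the A375 control of 6 days the log2 fold change was -0.59 for ETV1, -0.13 for GNAQ, -0.09 for PIK3CA, -0.54 for PDGFD, -1.10 for MLLT3, -0.19 for PERP, 0.36 for CDC20, 0.10 for MCM2, -0.45 for SC5D, 0.66 for EBP, -0.61 for KDR, 0.58 for PRMT5, 0.79 for CDK4, -0.34 for CDC27, -0.24 for BRAF, -5.63 for TYR, -0.19 for S100B, 0.99 for AKT1, -3.47 for DMRTA1, -0.21 for EDNRB, -5.52 for HLA-DQA1, 0.06 for LDHA, 0.06 for MET and -1.61 for RB1. With the mean of both A375 controls it was -0.17 for MLLT3, 0.04 for EBP, 0.01 for PRMT5, 0.05 for CDK4, 0.47 for AKT1, -1.73 for DMRTA1 and -0.78 for RB1. The cause was not tested. With the A375 control of 6 days the median turned to -0.20 for the melanocyte list, 0.34 for the cell cycle list and 0.33 for class I. With 2 libraries per group, the choice of A375 control also turned large differences, such as 4.13 for PDGFD and 4.04 for KDR.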
